A study of Mus musculus with 39 samples.

Results

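Glutathione synthesis and recycling was followed through 8 genes, namely the ligase subunits Gclc and Gclm, the synthase Gss, the reductase Gsr, the cystine carrier subunit Slc7a11, and the breakdown enzymes Ggt1, Ggct and Chac1. They are 8 of the 18193 genes that the array annotation names. Each was read by its probe set annotated to that symbol alone, and by the brightest one over all arrays where there were several. By this rule 7 of the 8 genes had a probe set and Ggt1, a cell surface enzyme that splits extracellular glutathione, was not analysed here. Of those 7 genes, 6 were bright enough to be tested, and Slc7a11 lay below the limit on dim probe sets.

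Lungs of 39 female Crlj:CD1(ICR) mice, an outbred stock, were each hybridized to an array of their own. The diets held permethrin at 5000 ppm, permethrin at 10000 ppm, isoniazid at 2500 ppm or neither compound (control), and were fed for 7 or 14 days. Permethrin belongs to the pyrethroid insecticides. Isoniazid is used against tuberculosis, and the labels list it as the positive control for tumour induction. Animals were 11 weeks old after 7 days and 12 weeks old after 14 days, so that age and time on diet cannot be told apart. There were 4 animals on permethrin 10000 ppm for 14 days and 5 in every other group, and the precision is limited by these numbers. The labels give no weights, food intake or lung pathology, and whole lungs were used, so that a change in the share of a cell type and a change in RNA per cell cannot be told apart.

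Glutathione is a tripeptide of glutamate, cysteine and glycine, and the main soluble thiol of the cell. Glutamate-cysteine ligase, a catalytic subunit (GCLC) with a modifier subunit (GCLM), makes the first and rate-limiting bond, and glutathione synthetase (GSS) adds glycine. Glutathione reductase (GSR) returns oxidized glutathione to the reduced form with NADPH. The xCT transporter (SLC7A11) brings in cystine as the source of cysteine, CHAC1 splits glutathione inside the cell, and GGCT acts on the gamma-glutamyl dipeptides that breakdown releases. The transcription factor NRF2 is known to induce the ligase subunits, Gsr and Slc7a11 through antioxidant response elements, and ATF4 is known to induce Slc7a11 and Chac1. In the lung, glutathione is abundant in the fluid lining the airways and alveoli.

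As a check of the tissue, markers of alveolar type 2 cells and of club cells had median levels at the 99.5th and 99.9th percentiles of all named genes. For endothelial cells, alveolar macrophages and ciliated cells the percentiles were 95.6, 68.9 and 66.3. Markers of other tissue, cardiac muscle and liver, stood at 87.9 and 40.5. Their mean log2 signals per array ran from 6.46 to 9.90 and from 3.15 to 6.82. Correlations between arrays ran from 0.862 to 0.945 on the log2 scale. The log2 ratio of the 3' to the 5' control probe set of Gapdh, which rises as RNA degrades, exceeded 0.7 on 7 arrays, all at 14 days. They were permethrin 5000 ppm replicates 4 and 5, permethrin 10000 ppm replicate 3, isoniazid replicates 3 and 5, and control replicates 4 and 5.

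Promoter windows of 300 bases, from RefSeq on GRCm38.p6, are shown for genes that differ in their behaviour in these lungs. Gclm and Gss were called with permethrin, Chac1 was not, and Slc7a11 was dim. The table used here had windows for 6 of the 8 genes, and those of Gclc and Gsr were not used here. Each runs from 250 bases before to 50 bases after a transcript start, 5' to 3' on the strand of the gene. Capitals mark matches, on either strand, to TGACNNNGC (the core of the antioxidant response element) or to TGATGNAA (the core of the element bound by ATF4 with a C/EBP partner). The Gclm window is chr3:122245307-122245606 (plus strand), the Gss window chr2:155592761-155593060 (minus strand), the Slc7a11 window chr3:50443564-50443863 (minus strand) and the Chac1 window chr2:119350992-119351291 (plus strand).
Gclm: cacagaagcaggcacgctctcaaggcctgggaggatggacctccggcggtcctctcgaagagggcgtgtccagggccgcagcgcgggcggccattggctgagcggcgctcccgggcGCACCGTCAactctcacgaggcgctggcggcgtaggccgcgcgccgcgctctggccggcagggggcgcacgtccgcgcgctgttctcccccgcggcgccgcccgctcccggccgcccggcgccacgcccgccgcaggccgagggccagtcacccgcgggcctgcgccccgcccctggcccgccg
Gss: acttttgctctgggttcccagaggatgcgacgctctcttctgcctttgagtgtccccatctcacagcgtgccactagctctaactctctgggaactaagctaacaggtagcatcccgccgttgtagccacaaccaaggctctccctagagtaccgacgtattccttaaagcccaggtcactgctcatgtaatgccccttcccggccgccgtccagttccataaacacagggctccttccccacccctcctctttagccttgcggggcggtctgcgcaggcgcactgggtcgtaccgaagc
Slc7a11: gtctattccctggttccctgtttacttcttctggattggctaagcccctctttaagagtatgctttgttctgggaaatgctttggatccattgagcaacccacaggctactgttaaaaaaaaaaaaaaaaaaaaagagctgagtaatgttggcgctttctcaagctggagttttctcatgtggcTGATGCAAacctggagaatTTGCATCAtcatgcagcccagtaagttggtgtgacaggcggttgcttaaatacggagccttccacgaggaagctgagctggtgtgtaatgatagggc
Chac1: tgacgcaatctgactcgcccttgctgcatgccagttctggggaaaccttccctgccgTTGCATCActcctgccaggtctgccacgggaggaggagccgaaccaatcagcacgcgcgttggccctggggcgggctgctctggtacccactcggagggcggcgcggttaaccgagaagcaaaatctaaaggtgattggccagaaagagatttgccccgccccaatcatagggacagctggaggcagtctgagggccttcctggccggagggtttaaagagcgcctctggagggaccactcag

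The Gclm window held 1 match to TGACNNNGC, on the reverse strand from -134 to -126 of the start. The Gss window held no match to either motif. The Slc7a11 window held 2 matches to TGATGNAA, forward from -66 to -59 and reverse from -47 to -40, and the Chac1 window held 1, reverse from -193 to -186. Of the windows not shown, those of Ggct and Ggt1 held matches to TGACNNNGC. Of all 32851 windows in the table, 12.4% held TGACNNNGC and 3.97% held TGATGNAA. A match is a description of the letters and not evidence of a bound site.

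With permethrin, the ligase and synthase genes rose in the lung, and the tested breakdown genes Ggct and Chac1 were not called. Over both times, permethrin 10000 ppm raised Gclc 2.35-fold, Gss 2.0-fold, Gclm 1.85-fold and Gsr 1.58-fold against control. Permethrin 5000 ppm raised Gclc 1.91-fold, Gclm 1.51-fold and Gss 1.5-fold. None of the 6 tested genes was called with isoniazid. In the isoniazid average 0.392% of all tested genes were, so 0 calls among 6 is near that share.

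Gclc encodes the catalytic subunit of the ligase (chr9:77754535-77794489). At 7 days its normalized signals were 918.7, 1079, 1152, 1313 and 1649 with permethrin 5000 ppm and 1762, 1120, 1087, 2797 and 1729 with permethrin 10000 ppm, against 630.1, 600.3, 731.2, 524.7 and 419.3 in controls. Every permethrin lung at 7 days lay above every control lung. The share of all tested genes that separate in this way is not given, here or for the comparisons of ranges below. The signals at 14 days were 879.2, 859.5, 724.6, 1885 and 1756 with 5000 ppm and 1259, 1439, 1253 and 1194 with 10000 ppm, against 745.4, 633.9, 653.8, 753.1 and 501.5 in controls. The 14-day control range was crossed by a single 5000 ppm lung, replicate 3, and by no 10000 ppm lung. The log2 fold change with 10000 ppm was 1.48 at 7 days (SE 0.26, adjusted p = 0.00132) and 0.98 at 14 days (SE 0.27, adjusted p = 0.232). With 5000 ppm it was 1.07 at 7 days (SE 0.26, adjusted p = 0.13) and 0.79 at 14 days (SE 0.26, adjusted p = 0.629).

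The 2 highest Gclc values at 14 days with 5000 ppm, 1885 and 1756, came from replicates 4 and 5, both among the arrays of high Gapdh ratio. Averaged over both times, Gclc was 0.93 higher on the log2 scale with 5000 ppm (95% interval 0.56 to 1.30, adjusted p = 0.00697). Without the 7 arrays of high Gapdh ratio the value was 0.67 and the call was lost (adjusted p = 0.155). With 10000 ppm the average was 1.23 (95% interval 0.85 to 1.61, adjusted p = 7.56e-05).

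A second probe set of Gclc, 1455959_s_at, varied less within groups (pooled SD 0.23 on the log2 scale, against 0.44 for 1424296_at above). Its readings at 14 days were 655.0, 681.0, 579.9, 775.8 and 672.5 with 5000 ppm and 856.3, 1146, 673.7 and 942.3 with 10000 ppm, against 378.8, 353.2, 421.3, 505.4 and 400.8 in controls. Here no permethrin lung reached the control range, and 5000 ppm replicates 4 and 5 did not stand apart. In a fit to every probe set it was called at both doses and both times. Its log2 fold changes with 5000 ppm were 0.90 at 7 days (adjusted p = 0.00171) and 0.71 at 14 days (adjusted p = 0.0416). With 10000 ppm they were 1.39 at 7 days (adjusted p = 1.17e-07) and 1.12 at 14 days (adjusted p = 4.44e-05).

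**Figure D1:**
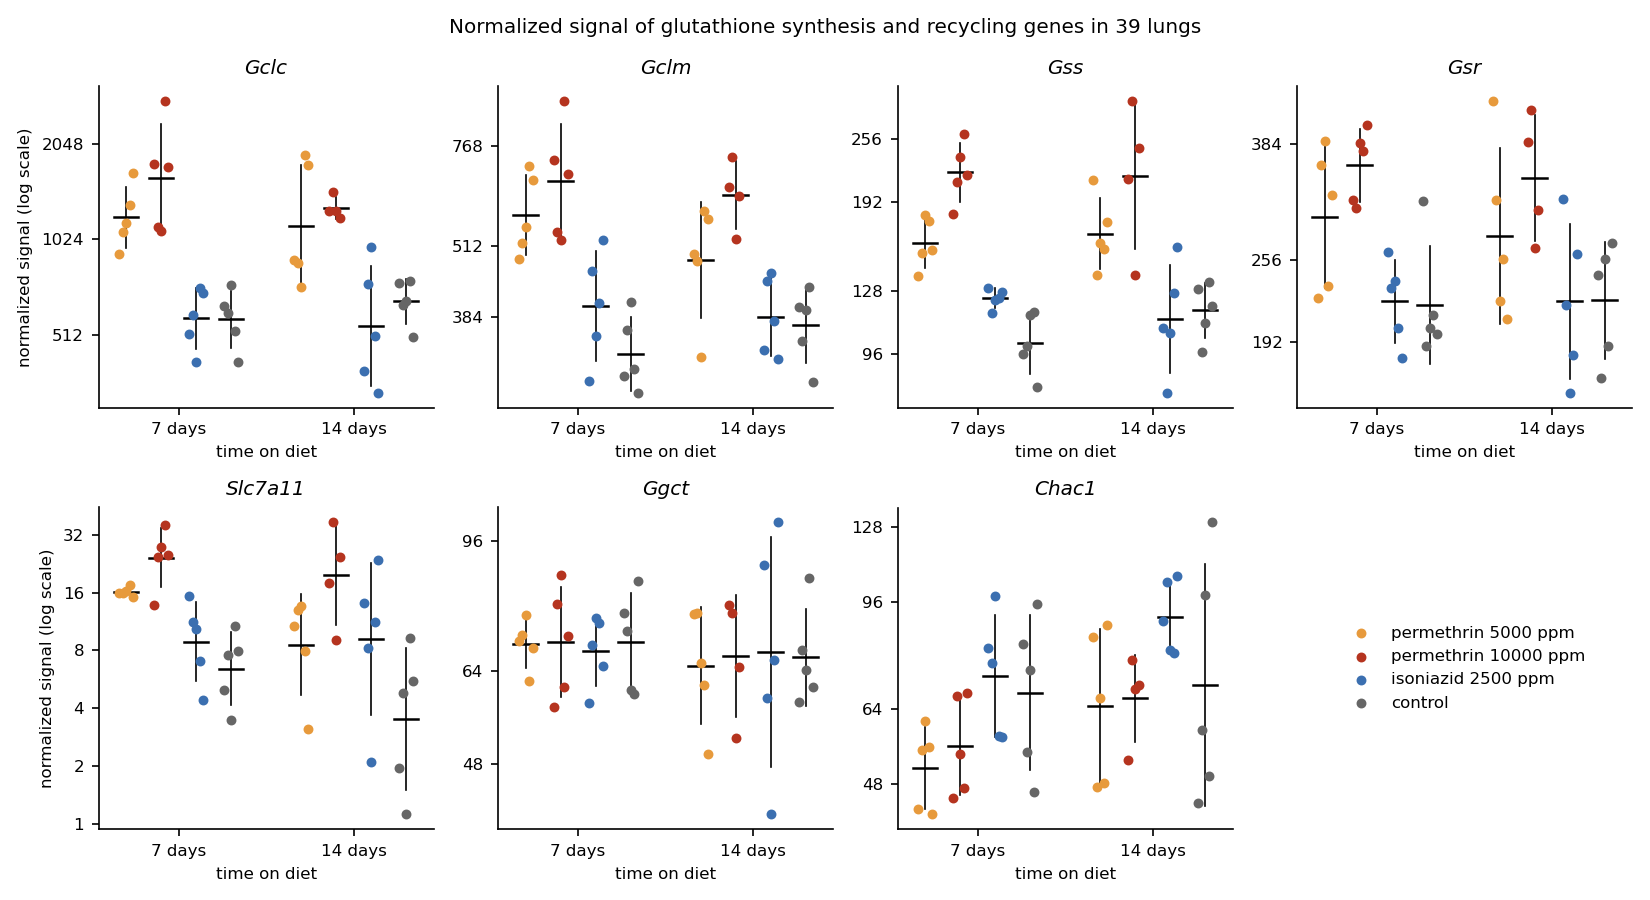
Normalized signal (log axis) of the 7 measured genes in each of 39 lungs, by time on diet (days) and, from left to right, permethrin 5000 ppm, permethrin 10000 ppm, isoniazid 2500 ppm and control; points are animals, horizontal bars the mean of log2 values and vertical bars 1 SD. All 5 permethrin lungs of each dose lie above the 5 controls at 7 days for Gclc, Gclm, Gss and the dim Slc7a11, whereas Ggct overlaps in all groups. The share of all tested genes that separate in this way is not given here.

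Gclm encodes the modifier subunit (chr3:122245487-122267215), which raises the affinity of the ligase for glutamate. At 7 days it read 485.3, 518.3, 552.7, 709.2 and 669.0 with permethrin 5000 ppm and 724.6, 541.6, 525.7, 923.4 and 686.4 with 10000 ppm, against 301.8, 364.7, 408.5, 310.7 and 282.1 in controls. At 7 days neither permethrin group overlapped the controls, and the doses overlapped each other. Signals at 14 days were 496.7, 481.3, 326.7, 590.1 and 571.9 with 5000 ppm and 650.1, 735.2, 527.0 and 626.1 with 10000 ppm, against 399.6, 348.6, 395.6, 432.8 and 294.5 in controls. Replicate 3 of the 5000 ppm group again lay within the control range, while the 10000 ppm group lay above it.

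At 7 days Gclm rose by 0.81 with 5000 ppm (log2 fold change, SE 0.16, adjusted p = 0.0196) and by 1.01 with 10000 ppm (SE 0.16, adjusted p = 0.000351). At 14 days the value was 0.38 with 5000 ppm (SE 0.16, adjusted p = 0.919) and 0.76 with 10000 ppm (SE 0.17, adjusted p = 0.044). The 14-day call was lost with only the compared groups in the model (adjusted p = 0.0982), without the arrays of high Gapdh ratio (adjusted p = 0.104) and on leaving out any of 7 of the 9 animals (adjusted p up to 0.332), and the 7-day call at 5000 ppm on leaving out any of 5 of the 10 (adjusted p up to 0.132). Averaged over both times the log2 fold change was 0.60 with 5000 ppm (95% interval 0.36 to 0.83, adjusted p = 0.00567) and 0.89 with 10000 ppm (95% interval 0.65 to 1.13, adjusted p = 5.61e-06). Without the 7 arrays of high Gapdh ratio the 5000 ppm value was 0.49 and no longer called (adjusted p = 0.206).

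Gss, the second enzyme of synthesis (chr2:155563181-155592810), showed the smallest adjusted p of these genes at 10000 ppm in each comparison with control. At 7 days it read 136.9, 152.1, 181.4, 176.0 and 154.6 with permethrin 5000 ppm and 182.2, 210.4, 236.1, 262.3 and 217.7 with 10000 ppm, against 96.19, 99.75, 114.9, 116.4 and 82.57 in controls. The 3 groups were separate, with every 10000 ppm lung above every 5000 ppm lung and every 5000 ppm lung above every control. At 14 days it read 212.1, 138.1, 159.6, 155.5 and 175.9 with 5000 ppm and 213.0, 305.0, 137.9 and 246.0 with 10000 ppm, against 129.3, 97.25, 110.9, 133.5 and 119.5 in controls. Here the doses overlapped, since 10000 ppm replicate 3, an array of high Gapdh ratio, was the lowest permethrin lung.

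The log2 fold change of Gss with 10000 ppm was 1.12 at 7 days (SE 0.16, adjusted p = 2.64e-05) and 0.88 at 14 days (SE 0.17, adjusted p = 0.00411). The 14-day call was lost without 10000 ppm replicate 2, whose signal was 305.0 (log2 fold change 0.72, adjusted p = 0.101). It was also lost with median centring (adjusted p = 0.0576), with only the compared groups in the model (adjusted p = 0.333) and with liver and cardiac scores as covariates (adjusted p = 0.0776). With 5000 ppm it was 0.66 at 7 days (SE 0.16, adjusted p = 0.13) and 0.50 at 14 days (SE 0.16, adjusted p = 0.563). Averages over both times were 0.58 with 5000 ppm (95% interval 0.35 to 0.81, adjusted p = 0.00538) and 1.0 with 10000 ppm (95% interval 0.77 to 1.24, adjusted p = 1.94e-07). The 5000 ppm call was lost with median centring (0.57, adjusted p = 0.16) and with those covariates (0.46, adjusted p = 0.0752). A second probe set of Gss, 1441931_x_at, gave 0.68 with 5000 ppm (adjusted p = 0.00033) and 1.19 with 10000 ppm (adjusted p = 1.82e-09).

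Gsr, which recycles oxidized glutathione (chr8:33653238-33698162), was called in the average with 10000 ppm. At 7 days it read 223.8, 357.1, 388.1, 233.0 and 320.7 with permethrin 5000 ppm and 316.1, 306.6, 385.4, 374.4 and 410.2 with 10000 ppm, against 314.8, 189.3, 201.6, 210.5 and 196.9 in controls. Control replicate 1 lay well above the other 4 controls and inside both permethrin ranges. Gsr read, at 14 days, 447.3, 315.4, 221.2, 256.8 and 208.1 with 5000 ppm and 386.1, 432.2, 266.4 and 304.5 with 10000 ppm, against 242.4, 168.7, 256.7, 189.4 and 271.0 in controls. Both permethrin groups overlapped the controls at this time.

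At single times Gsr was not called, with log2 fold changes of 0.71 at 7 days (SE 0.20, adjusted p = 0.28) and 0.62 at 14 days (SE 0.21, adjusted p = 0.489) for 10000 ppm. Its average with 10000 ppm was 0.66 (95% interval 0.37 to 0.95, adjusted p = 0.0137). That call was lost without 10000 ppm replicate 2 at 14 days (0.61, adjusted p = 0.0656) and with median centring (0.69, adjusted p = 0.114). With 5000 ppm the average was 0.38 (95% interval 0.10 to 0.67, adjusted p = 0.903). A second probe set, 1421816_at, gave 0.81 with 10000 ppm (adjusted p = 0.0124) and 0.51 with 5000 ppm (adjusted p = 0.83).

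**Figure D2:**
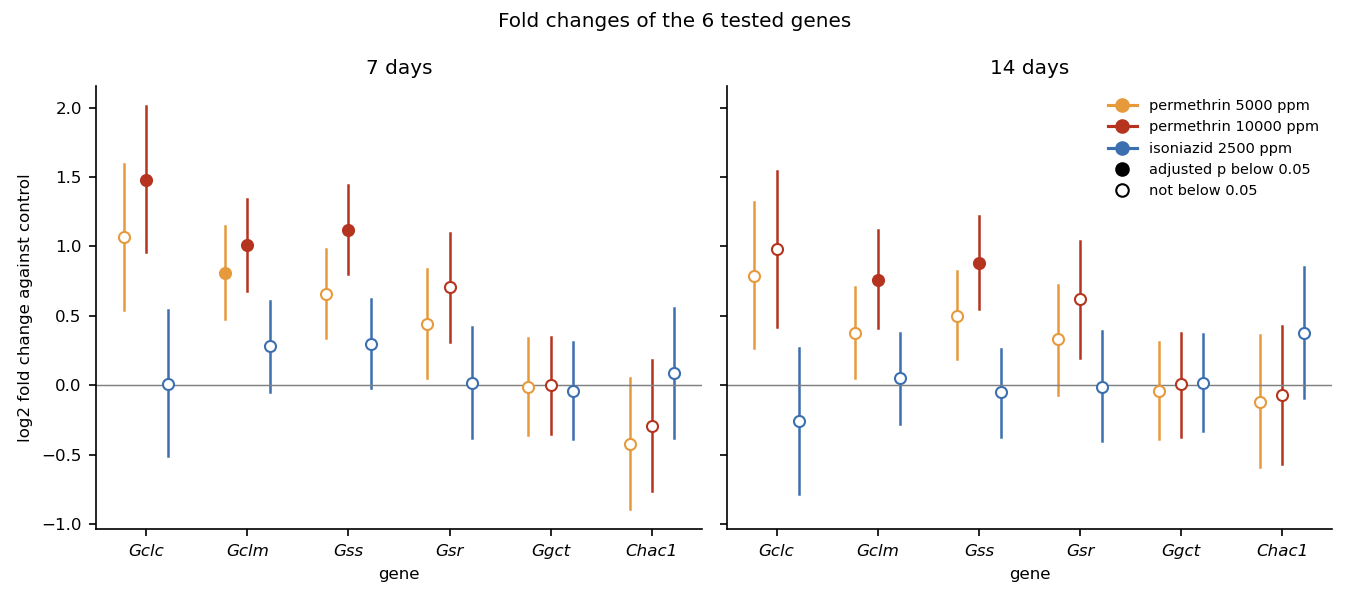
Log2 fold change against the control of the same time for the 6 tested genes, at 7 days (left) and 14 days (right); lines are 95% intervals, filled points have an adjusted p below 0.05, and each gene shows permethrin 5000 ppm, permethrin 10000 ppm and isoniazid 2500 ppm from left to right. Filled points are confined here to Gclc, Gclm and Gss with permethrin.

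Slc7a11, the cystine carrier subunit (chr3:50364936-50499087), gave signals below the limit of 10.8 in all 10 control lungs. At 7 days it read 16.01, 15.93, 16.23, 17.47 and 15.19 with permethrin 5000 ppm and 13.81, 24.57, 27.67, 36.05 and 25.10 with 10000 ppm, against 4.957, 7.583, 3.479, 10.71 and 7.956 in controls. Neither permethrin group overlapped the controls at 7 days, and the 5000 ppm range lay within that of 10000 ppm. At 14 days it read 10.67, 12.97, 13.65, 7.960 and 3.107 with 5000 ppm and 18.04, 37.22, 9.058 and 24.52 with 10000 ppm, against 1.960, 4.836, 1.123, 9.322 and 5.533 in controls.

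At these levels a small difference in signal is a large fold change, and Slc7a11 was not tested in the main comparison. When the limit on dim probe sets was dropped and all 18193 genes were tested, its average with 10000 ppm was 2.20 on the log2 scale (SE 0.38, adjusted p = 0.000862). Leaving out each of the 19 animals in turn kept this call, with adjusted p from 0.000208 to 0.00602. With 5000 ppm the average was 1.30 (SE 0.37, adjusted p = 0.382) and with isoniazid 0.92 (SE 0.37, adjusted p = 0.472). A second, dimmer probe set, 1443536_at, gave 2.24 with 10000 ppm (SE 0.54) and missed the threshold in the fit to every probe set (adjusted p = 0.0819).

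The breakdown genes Ggct and Chac1 did not pass the test with either compound. Ggct (chr6:54985095-54992960) ranged from 57.32 to 86.42 with permethrin at 7 days, against 59.71 to 84.80 in controls. Its average log2 fold change was -0.02 with 5000 ppm (95% interval -0.27 to 0.22, adjusted p = 1) and 0.00 with 10000 ppm (95% interval -0.25 to 0.26, adjusted p = 0.998). In folds, both intervals lie between 0.828 and 1.2. The other probe sets of Ggct, 1429090_at and 1445855_at, had mean log2 signals of 2.56 and 0.51, below the limit on dim probe sets. Over the alternatives, these probe sets among them, the Ggct average ran from -0.36 to 0.09 with 5000 ppm. With 10000 ppm it ran from -0.74 to 0.1, and no alternative gave a call. Chac1 (chr2:119351242-119354326) read 43.73, 54.64, 60.95, 55.35 and 42.75 with 5000 ppm and 45.46, 67.20, 53.90, 47.35 and 67.99 with 10000 ppm at 7 days, against 82.04, 54.22, 74.11, 46.52 and 95.26 in controls. All 10 permethrin lungs lay below the control mean, yet the ranges overlapped. Its average log2 fold change was -0.27 with 5000 ppm (95% interval -0.60 to 0.07, adjusted p = 1) and -0.18 with 10000 ppm (95% interval -0.53 to 0.16, adjusted p = 0.943).

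Counted over the 6 tested genes, 1 was called with permethrin 5000 ppm at 7 days, against 0.0922% of the 13020 tested genes. With 10000 ppm at 7 days 3 were called, against 0.238% of all tested genes. At 14 days 0 were called with 5000 ppm, where 0.131% of all tested genes were, and 2 with 10000 ppm, against 0.215%. Averaged over both times the counts were 3 of 6 with 5000 ppm, against 0.223% of all tested genes, and 4 of 6 with 10000 ppm, against 0.499%. The median log2 fold change of the 6 genes in the averages was 0.48 with 5000 ppm and 0.77 with 10000 ppm, whereas the median over all tested genes was -0.01 and 0.01. All called genes were higher with permethrin. Comparisons with control share the control animals of a time, so their calls are not independent of each other.

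Isoniazid left all 6 genes uncalled. At 7 days Gclc lay between 420.8 and 716.1 with isoniazid, against 419.3 to 731.2 in controls. At 14 days it spread from 335.0 to 963.8 with isoniazid, against 501.5 to 753.1 in controls. Called genes numbered 0 of 6 at 7 days, 0 of 6 at 14 days and 0 of 6 in the average, where 0.0461%, 0.0307% and 0.392% of all tested genes were called. For 6 genes, 0 calls is near these shares. Average log2 fold changes ran from -0.12 for Gclc (95% interval -0.50 to 0.25) to 0.23 for Chac1 (95% interval -0.10 to 0.57). In folds, the upper bounds of the intervals were 1.19 for Gclc, 1.32 for Gclm and 1.27 for Gss. At 14 days all 5 isoniazid lungs lay above the control mean of Chac1, at 89.54, 103.7, 79.94, 78.99 and 106.0, against 44.65, 59.06, 98.71, 49.58 and 130.4 in controls. The control lungs spread on both sides of them, and the log2 fold change was 0.38 (SE 0.23, adjusted p = 0.922).

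Set directly against isoniazid, permethrin 10000 ppm was higher for 4 of 6 genes in the average over both times, where 0.353% of all tested genes were called. The log2 differences were 1.36 for Gclc (adjusted p = 1.24e-05), 0.88 for Gss (adjusted p = 3.12e-06), 0.72 for Gclm (adjusted p = 0.000307) and 0.66 for Gsr (adjusted p = 0.0168). Permethrin 5000 ppm was higher than isoniazid for Gclc by 1.05 (adjusted p = 0.00119) and for Gss by 0.46 (adjusted p = 0.0498), 2 of 6 genes against 0.415% of all tested genes. The Gss call at 5000 ppm was lost on leaving out any of 17 of the 20 animals (adjusted p up to 0.112). Chac1 went the other way, lower with permethrin, and was not called. Its log2 difference from isoniazid was -0.42 with 10000 ppm (95% interval -0.76 to -0.07, adjusted p = 0.641). With 5000 ppm it was -0.50 (95% interval -0.83 to -0.17, adjusted p = 0.235). The compounds were fed at different doses, so a difference between them is one between these diets.

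Between the doses of permethrin no synthesis or recycling gene was called. All 6 genes had a higher average with 10000 ppm than with 5000 ppm, but for Ggct (0.03, SE 0.13) and Chac1 (0.08, SE 0.17) the difference was smaller than its SE. The share of all tested genes that were higher is not given here. In limma 0 of 6 passed the test, where 0.00768% of all tested genes did and 436 had an unadjusted p below 0.05. The log2 difference of Gss was 0.42 (95% interval 0.19 to 0.66, unadjusted p = 0.000748, adjusted p = 0.999). It stood at rank 7 among all tested genes, and was called when 10000 ppm replicate 3 at 14 days was left out (0.53, adjusted p = 0.0451). For the other synthesis and recycling genes the differences were 0.30 for Gclc (95% interval -0.08 to 0.68), 0.29 for Gclm (95% interval 0.05 to 0.53) and 0.28 for Gsr (95% interval -0.01 to 0.57).

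Between 14 and 7 days no gene changed its response detectably. The change of effect was called for 0 of 6 genes with 5000 ppm, 0 of 6 with 10000 ppm and 0 of 6 with isoniazid, and for 0% of all 13020 genes each time in limma. Unadjusted p below 0.05 was reached by 371, 293 and 384 genes. For Gclc the effect of 10000 ppm at 14 days minus that at 7 days was -0.50 (95% interval -1.27 to 0.26), and for Gclm with 5000 ppm it was -0.43 (95% interval -0.90 to 0.04). Control lungs at 14 days against control lungs at 7 days gave 0 of 6 called, where 0.115% of all tested genes were, with log2 differences from -0.07 for Ggct to 0.21 for Gss.

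The genes did not vary as a single block among animals of the same group. Deviations from the group mean were correlated over the 39 lungs for all 21 pairs of the 7 genes, with permutation within groups. Gclc and Gclm deviated together (Pearson r = 0.83, Spearman rho = 0.86, permutation p = 1e-05 for each, the smallest that 100000 permutations can give, adjusted p = 0.00021). Without the 2 lungs farthest from the median of Gclc, r was 0.81. The correlation with Gss was r = -0.02 for Gclc (rho = 0.01, permutation p = 0.9) and r = 0.18 for Gclm (rho = 0.17, permutation p = 0.27). Gclc ran opposite to Ggct (r = -0.62, rho = -0.53, adjusted permutation p = 0.0065 and 0.028, r = -0.53 without the 2 farthest lungs). It also ran opposite to the dim Slc7a11 (r = -0.50, rho = -0.51, adjusted permutation p = 0.017 for each, r = -0.50 without the 2 farthest). Slc7a11 and Ggct deviated together by r (0.65, adjusted permutation p = 0.0052, 0.59 without the 2 farthest) and not by rho (0.45, adjusted permutation p = 0.07), as did Gsr and Ggct (r = 0.47, adjusted permutation p = 0.043, 0.45 without the 2 farthest, rho = 0.42, adjusted permutation p = 0.08). The Gapdh ratio had r between 0.02 and 0.14 with Gclc, Gclm, Gss, Slc7a11 and Ggct within groups. Such an r does not show deviations of opposite sign among arrays of high ratio. Isoniazid replicates 3 and 5 at 14 days, both of high ratio, deviated by 0.826 and -0.699 for Gclc and by -0.732 and 0.584 for Ggct. The part of RNA quality in the correlations between genes was not tested.

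The tie between the ligase subunits differed between the 2 probe sets of Gclm. The brighter one, 1418627_at, had r = 0.83 with 1424296_at and 0.50 with 1455959_s_at of Gclc (rho = 0.86 and 0.49, adjusted permutation p = 6e-05 and 0.0076 over 6 pairs). The dimmer one, 1439050_at, had r = -0.02 and 0.29 with them (rho = -0.02 and 0.23, adjusted permutation p = 0.89 and 0.25). The 2 Gclc probe sets had r = 0.53 with each other within groups (rho = 0.50, adjusted permutation p = 0.0023). The 2 Gclm probe sets had r = 0.07 (rho = 0.02, adjusted permutation p = 0.84). Yet both gave similar average log2 fold changes, 0.60 and 0.62 with 5000 ppm and 0.89 and 0.91 with 10000 ppm. The difference between these correlations was not tested.

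**Figure D3:**
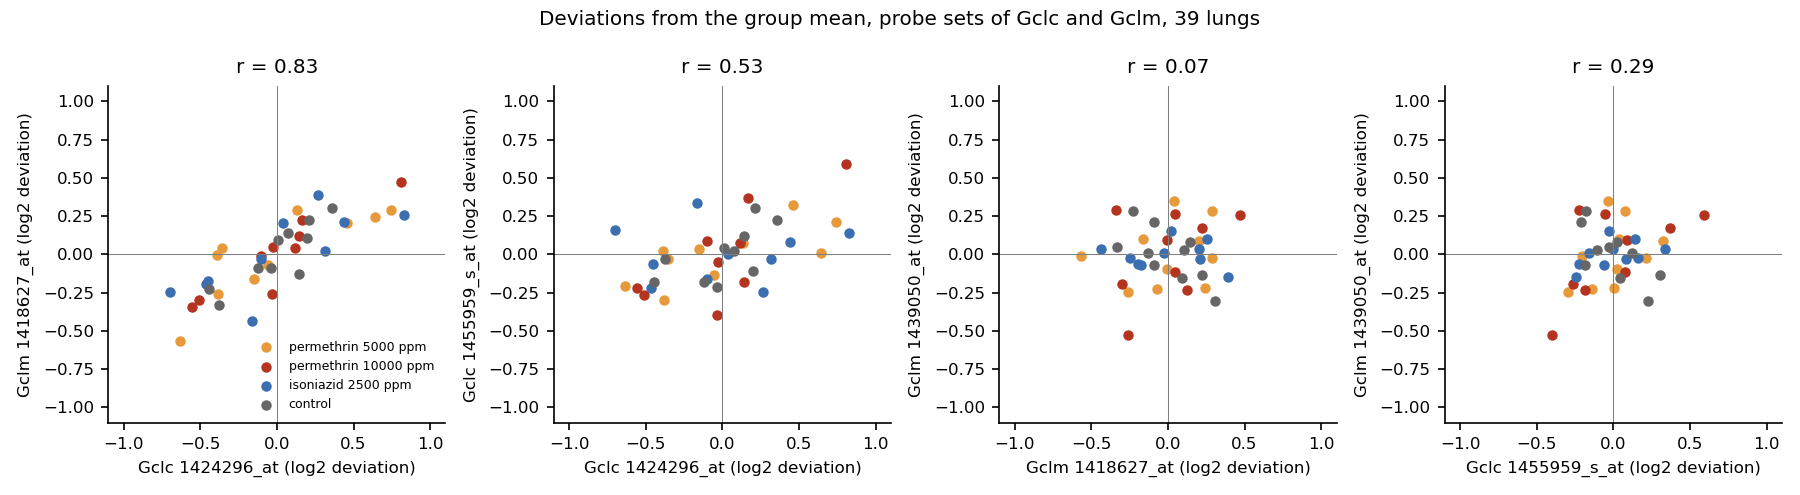
Log2 deviations from the group mean in 39 lungs, coloured by diet, for 4 pairs of probe sets of Gclc (1424296_at, 1455959_s_at) and Gclm (1418627_at, 1439050_at). From left to right r is 0.83 between the brighter probe sets of the 2 genes, 0.53 between the Gclc probe sets, 0.07 between the Gclm probe sets and 0.29 between the dimmer probe sets of the 2 genes.

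Across all 39 arrays, the genes most like each synthesis and recycling gene were found by Pearson correlation of log2 signals, which includes the differences between groups. The closest to Gss were Srxn1, which reduces sulfinylated peroxiredoxins (r = 0.92), and the carbonyl reductases Cbr3 (r = 0.91) and Cbr1 (r = 0.90). Those closest to Gclm were Cbr1 (r = 0.82), the aldehyde dehydrogenase Aldh3a1 (r = 0.81) and Srxn1 (r = 0.80). Gclc lay closest to the carboxylesterase Ces1g and the efflux transporter Abcc3 (r = 0.80 each) and to the epoxide hydrolase Ephx1 (r = 0.79). Gsr lay closest to the glutathione transferase Gstm1 and to Entpd5 (r = 0.79 each), followed by the thioredoxin reductase Txnrd1 (r = 0.76). Ggct lay closest to BC048403 (r = 0.80), Ankmy2 and Metap1d (r = 0.77 each). Chac1 lay closest to Hey1 (r = 0.67), Ilk (r = 0.66) and Smarcc2 (r = 0.65), and the dim Slc7a11 to Cyb5a (r = 0.74), Cldn8 and Acox2 (r = 0.71 each).

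Among genes around the pathway, 2 genes of NADPH supply rose with permethrin. Of 8 listed genes 7 were tested, and in the averages 1 was called with 5000 ppm, where 0.223% of all tested genes were, and 2 with 10000 ppm, where 0.499% were, all higher. Pgd, an NADPH-producing enzyme of the pentose phosphate pathway, rose by 0.62 with 5000 ppm (adjusted p = 0.000969) and by 0.87 with 10000 ppm (SE 0.11, adjusted p = 1.44e-06). Taldo1, the transaldolase of the same pathway, rose by 0.51 with 10000 ppm (SE 0.09, adjusted p = 0.00113), and its value with 5000 ppm was 0.28 (adjusted p = 0.606). Me1, a malic enzyme, had 0.60 with 10000 ppm (SE 0.23, adjusted p = 0.539). The median of the list was 0.16 with 5000 ppm and 0.25 with 10000 ppm, against -0.01 and 0.01 over all tested genes.

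Precursor supply, other breakdown enzymes, and glutathione users and transporters had 0 of 10, 0 of 8 and 0 of 9 tested genes called with either permethrin dose in the averages. Of all tested genes, 0.223% were called with 5000 ppm and 0.499% with 10000 ppm, so 0 calls in lists of this size is near that share. In the list of cysteine and glutamate supply, Slc3a2, which pairs with Slc7a11 in the carrier, had 0.17 with 5000 ppm (adjusted p = 1) and 0.14 with 10000 ppm (adjusted p = 0.764). Cth, which makes cysteine from cystathionine, rose with isoniazid by 0.48 (SE 0.10, adjusted p = 0.0248). It was the 1 gene of this list that passed with isoniazid, where 0.392% of all tested genes did. Cth was 0.01 with 5000 ppm (adjusted p = 1), and its log2 difference between 5000 ppm and isoniazid was -0.47, lower with permethrin (adjusted p = 0.0275).

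Of 9 NRF2 regulators 0 passed with either dose, where 0.223% of all tested genes passed with 5000 ppm and 0.499% with 10000 ppm. Their median was 0.03 with 5000 ppm and 0.11 with 10000 ppm. Nfe2l2, which encodes NRF2, had -0.06 with 10000 ppm (adjusted p = 0.946), and Keap1, its repressor, had 0.11 (adjusted p = 0.943). NRF2 is known to be regulated mainly through protein stability, which these arrays do not measure. Of 12 genes of the ATF4 arm 0 passed with any diet. Their median was 0.02 with 5000 ppm, 0.01 with 10000 ppm and 0.20 with isoniazid, against -0.01, 0.01 and 0.01 over all tested genes. With isoniazid 0.392% of all tested genes were called. The serine synthesis genes Psat1 and Phgdh had 0.47 (adjusted p = 0.128) and 0.46 (adjusted p = 0.0947) with isoniazid.

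**Figure D4:**
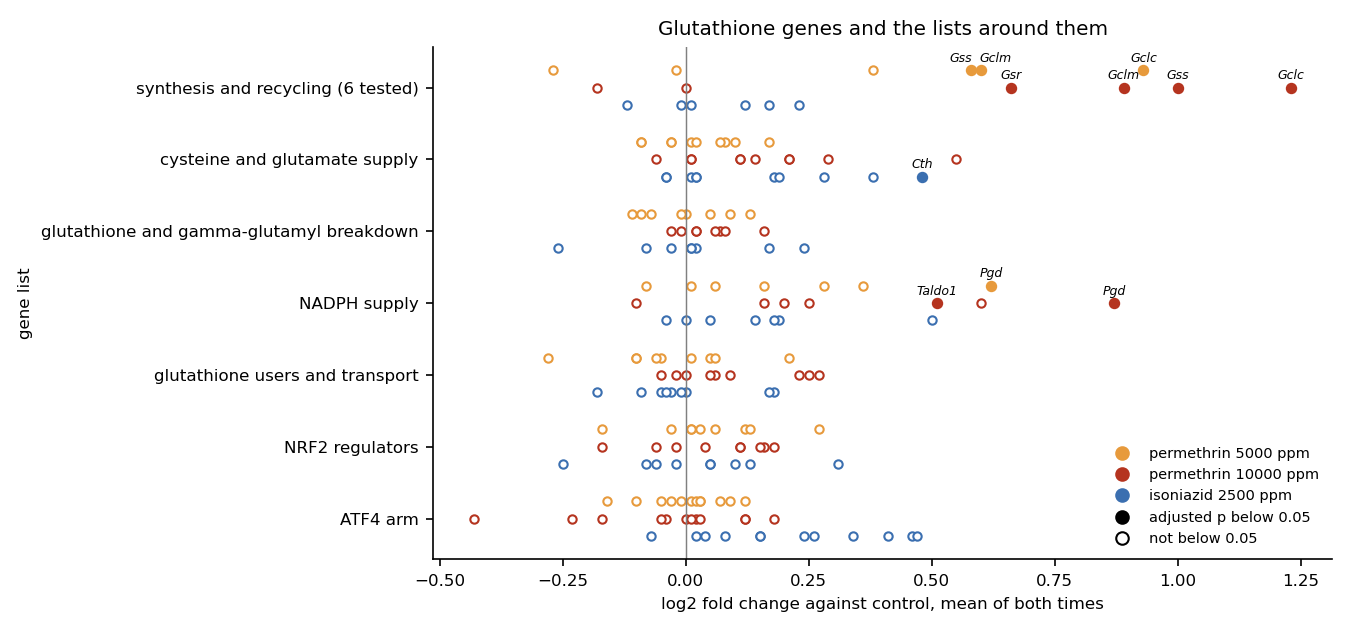
Log2 fold change against control, average of both times, for the tested genes of each list (vertical axis), with permethrin 5000 ppm, permethrin 10000 ppm and isoniazid 2500 ppm from top to bottom within a list; filled points have an adjusted p below 0.05 and carry the gene's name. Called genes outside synthesis and recycling are Pgd and Taldo1 with permethrin and Cth with isoniazid.

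Marker levels of other cells and tissues stood apart from controls in some groups before adjustment, and none of these differences in score passed it. With 4 or 5 animals in a group the exact test cannot give a very small p. A lone difference, however clear, could therefore not pass adjustment over 48 tests, and failing it does not show that scores were equal. The mean log2 signal of 8 club cell markers was 11.65 with 5000 ppm and 11.65 with 10000 ppm at 7 days, against 11.53 in controls (exact permutation p = 0.0317 and 0.0476). With isoniazid it was 11.63 at 7 days (exact permutation p = 0.0714) and 11.61 at 14 days (exact permutation p = 0.19). At 14 days it was 11.70 with 5000 ppm and 11.73 with 10000 ppm, against 11.55 in controls (exact permutation p = 0.0238 for each). Adjusted over 48 such tests, p ran from 0.304 to 0.381 with permethrin and was 0.428 and 0.57 with isoniazid. In the averages 2 of the 8 club markers were called with 10000 ppm, against 0.499% of all tested genes. They were Aldh1a1 (0.29) and Gsta3 (0.75), an aldehyde dehydrogenase and a glutathione transferase, and the median of the 8 was 0.07. Aldh1a1 was also called in the 5000 ppm average (0.24, adjusted p = 0.000289), where 0.223% of all tested genes were. The club score includes Aldh1a1 and Gsta3, and their part in its rise was not tested. Within groups the club score had r = 0.38 with Gclc, 0.55 with Gclm and 0.25 with Gss over 39 lungs. The alveolar macrophage score had r = -0.46 with Gclc and -0.43 with Gclm, and Gsr had r = 0.45 with the ciliated and 0.44 with the cardiac score. These are descriptions over arrays that share a normalization, and the part of these cells in the results was not tested. The cardiac score at 14 days was 8.52 with 5000 ppm, 8.57 with 10000 ppm and 8.61 with isoniazid, against 7.41 in controls (exact permutation p = 0.0317, 0.151 and 0.0556, adjusted p = 0.304, 0.57 and 0.381). The liver score at 14 days was 3.80 with isoniazid, against 5.22 in controls (exact permutation p = 0.0238, adjusted p = 0.304). In the average 1 of 13 tested liver markers, Serpina1c, was called with isoniazid (-2.91, adjusted p = 0.0133), against 0.392% of all tested genes. Of the markers of ciliated, alveolar type 2 and endothelial cells and of alveolar macrophages, 0 were called with any diet in the averages. The shares of all tested genes called there were 0.223% with 5000 ppm, 0.499% with 10000 ppm and 0.392% with isoniazid. With liver and cardiac scores as covariates, Gclc, Gclm and Gss with 10000 ppm in the average kept their calls, and Gsr did not (0.57, adjusted p = 0.0714).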

How the data were processed

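The authors deposited linear signal intensity for each probe set of each array, with MAS5 as the tool per the submitters' processing notes. No MAS5 version is stated. Total RNA was labelled by 3'-primed in vitro transcription, per the labels' protocols. Of 45101 probe sets, 64 were controls and 34945 carried a single symbol, for 18193 genes. Scanning, background correction and probe summary could not be varied, and MAS5 values near background are unstable.

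The deposited signals were put on the log2 scale and quantile normalized, which removes changes shared by most genes. Fold changes were taken within a probe set. Between probe sets, signals were ranked to choose the brightest of a gene, to set the limit on dim ones and to place tissue markers. Each gene was represented by its brightest probe set, and genes in the upper 60% of probe sets by mean (a log2 signal of at least 3.43) were tested, 13020 in all. A model with 8 group means was fitted to 39 arrays in limma 3.58.1 (R 4.3.3, data.table package, version 1.17.8), with a mean-variance trend, for 16 comparisons. P-values are two-sided and adjusted by Benjamini-Hochberg over 13020 genes, with a threshold of 0.05. A "called" gene passed it. Averages weight both times equally. Other probe sets were tested in a fit to all non-control probe sets. The steps were tested on simulated data.

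Groups and replicate numbers were taken from titles, and replicates are separate animals. The genes, lists, motifs and tests were chosen with earlier results of these data known. Named are all 8 genes, up to 4 called genes of each list and comparison by smallest p, and for each of the 8 that could be measured the 3 tested genes of highest Pearson r. Slc3a2, Me1, Nfe2l2, Keap1, Psat1 and Phgdh were named after their values were seen. Alternatives were the deposited scaling, median centring, a pseudocount of 4, no limit on dim probe sets, the upper 40%, only the compared groups, a replicate block, array weights, liver and cardiac scores as covariates, leaving out the arrays of high Gapdh ratio, other probe sets and leaving out each animal. Leaving out animals for Slc7a11 without the limit was added after seeing the data. Tissue and cell scores were compared with exact permutation tests (two-sided).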

Additional observations from a re-analysis of the deposited data

Results flagged for a closer look

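Gsr in control replicate 1 at 7 days had a normalized signal of 314.8, whereas the other 4 controls lay between 189.3 and 210.5. Its gap to the nearest of them was 0.791 of the range of the group, beyond the limit for 5 samples. Of 56 groups of values examined (7 genes in 8 groups) this was the 1 that stood out, and chance alone marks about 1 group in 20.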

How the results depend on the processing

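Under the alternatives other than leaving out an animal, 147 of 159 counts of called genes among the 6 stayed within 1.5 times the reported count. Many of these belong to comparisons where 0 was reported and every alternative also gave 0. The ratio therefore says little about the calls that were made. With permethrin 5000 ppm at 7 days, where 1 was reported, the count was 2 with median centring or only the compared groups, and 3 with array weights or without the arrays of high Gapdh ratio. With 10000 ppm at 14 days, where 2 were reported, it was 1 with only the compared groups, with the replicate block or without those arrays, and 0 with covariates. In the 5000 ppm average (3) it was 1 without those arrays. For 5000 ppm against isoniazid (2) it was 1 with median centring, no limit on dim probe sets or only the compared groups. The cause of these changes was not tested. Leaving out single animals gave 0 to 1 with 5000 ppm at 7 days, 0 to 2 with 10000 ppm at 14 days, 0 to 1 between doses and 1 to 2 for 5000 ppm against isoniazid. Deviations of same-numbered animals had a mean r of 0.034 over 57 pairs, of which 19 exceeded 0.1. The 228 other pairs had a mean r of -0.008, and 62 exceeded 0.1. This difference was not tested. With the replicate numbers as a block, 14 of 15 counts stayed within 1.5 times, again with comparisons of 0 calls among them. Gclm with 10000 ppm at 14 days had 0.74 there (adjusted p = 0.104). The block within each time gives no value for 14 against 7 days of control.

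Gene by gene, 0 of 2520 values turned direction where a call was made, and 163 changed sign where neither setting made a call, none of them counted as a change. Gclc, Gclm and Gss with 10000 ppm in the average were called in all 30 alternatives each, with log2 fold changes of 1.13 to 1.30, 0.83 to 0.93 and 0.88 to 1.19. Gsr there was lost in 3 of 30 (adjusted p up to 0.114, with median centring). Gclc with 10000 ppm at 14 days was gained in 4 of 20 (adjusted p down to 4.44e-05), and Gss there was lost in 4 of 20. Over all genes, array weights gave higher counts, among them 72 against 6 for isoniazid at 7 days, 71 against 28 for 10000 ppm at 14 days, 129 against 65 for its average, and 278 against 15 for 14 against 7 days of control. Median centring gave lower counts, among them 2 against 6 for isoniazid at 7 days, 20 against 31 for 10000 ppm at 7 days, 18 against 29 in the 5000 ppm average, 23 against 54 for 5000 ppm against isoniazid and 0 against 15 for 14 against 7 days of control. Covariates gave 4 against 17 for 5000 ppm at 14 days, 39 against 65 in the 10000 ppm average and 14 against 51 in the isoniazid average, and only the compared groups 9 against 28 for 10000 ppm and 1 against 4 for isoniazid at 14 days. The signal over background limits what can be said of Slc7a11.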
